A study of Rattus norvegicus with 20 samples.

Results

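Cells cultured from the trachea were compared with cells cultured from the whisker follicle after both had been recovered from transplants in the skin of newborn mice, over all genes of 4 of the 20 RNA-seq samples of the series. The 2 recovered tracheal samples were bulk cultures at a donor age of PN200 (postnatal day 200, TrRC). The 2 recovered whisker samples were of a single subclone, scl14, from a donor at PN57. All donors were EGFP transgenic Sprague-Dawley rats (green rats, in which the ubiquitous CAG promoter drives EGFP). Recovered cells had been injected into newborn mouse skin that was grafted to nude mice, taken back from the grafts, grown again in culture on irradiated mouse 3T3-J2 feeder cells and sorted on EGFP before RNA was extracted. The tracheal bulk cells and the whisker clone Cl7 before transplantation, and the recovered cells of bladder dome, vagina and thymus, each with 2 samples, were used for 2 further comparisons. Bladder donors were at PN201, vaginal donors at PN200 and thymic donors at PN137. Donor age, the growth of whisker cells as a clone and the tissue cannot be told apart here. In the study's methods, transplanted cultures were usually of early passages, with the whisker control cells as the exception. The passages of the sequenced samples are not given there, so passage cannot be told apart from tissue either. The 2 samples of each whisker group were of a single clone or subclone, and so not of separate donors. Nothing states that the 2 samples of another group came from separate animals, or those of any group from separate transplants. The p values may therefore measure only the spread of parallel cultures.

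The trachea is lined by a pseudostratified epithelium whose basal cells renew secretory and ciliated cells, and it derives from the foregut endoderm. The whisker follicle is a large hair follicle of the face whose stem cells renew the outer root sheath, the hair shaft and the sebaceous gland, and it derives from the surface ectoderm. Keratins are paired filament proteins that mark the kind of an epithelium. Keratins 8, 18 and 19 mark simple and glandular epithelia, keratin 4 marks the suprabasal layers of mucosal stratified epithelia, and keratin 10 marks suprabasal cells of the epidermis.

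Between 20723083 and 26587373 reads were counted on genes in the 4 samples compared. A floor of 3 counts corresponded to between 0.113 and 0.145 CPM (counts scaled to the size of the library), which covers counting error only. The share of uniquely aligned reads outside annotated genes was 14.9% and 15.9% in the tracheal samples and 14.9% and 19.0% in the whisker samples. Within a group the counts varied beyond sampling noise (mean chi-square per gene 6.04 in trachea and 9.49 in whisker), so both samples were kept. The files list genes by identifier only. Symbols came from the study's lists of genes that differed from whisker follicle cells, which gave 1917 of the 13302 genes tested a usable symbol. Named genes were thus chosen in part on the tracheal samples themselves, and genes with names late in the alphabet are mostly missing from them. Genes without a pairing, among them Tp63, Krt5, Krt14 and Nkx2-1, are not analysed here.

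Recovered tracheal cells differed from recovered whisker cells at 2534 of the 13302 genes tested, which is 19.0%. A gene is called when the Benjamini-Hochberg adjusted p value of limma voom is under 0.05 and the fold change is at least 2. Of the called genes, 1308 (9.83%) were higher and 1226 (9.22%) were lower in trachea. The difference was at least 4-fold for 1174 genes (8.83%), 650 of them higher (4.89%) and 524 lower (3.94%) in trachea, and at least 16-fold for 237 and 158 genes. The median log2 fold change of all genes tested was 0.01. Among the 1917 genes with a usable symbol, 462 (24.1%) were higher and 405 (21.1%) lower, together 45.2%, and 25.2% differed at least 4-fold. The counts of named genes below are to be read against the 45.2%. At the extreme, 12 genes had at least 10 CPM in both tracheal samples and at most 3 counts in each whisker sample, among them Gstt3, Hgfac, Pon3 and Tbc1d9. The converse pattern was found at 11 genes, of which 7 had a usable symbol (Bcl11a, Cbs, Ddx3, Eif2s3y, Nfasc, Prss12 and Tfap2b).

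**Figure D1:**
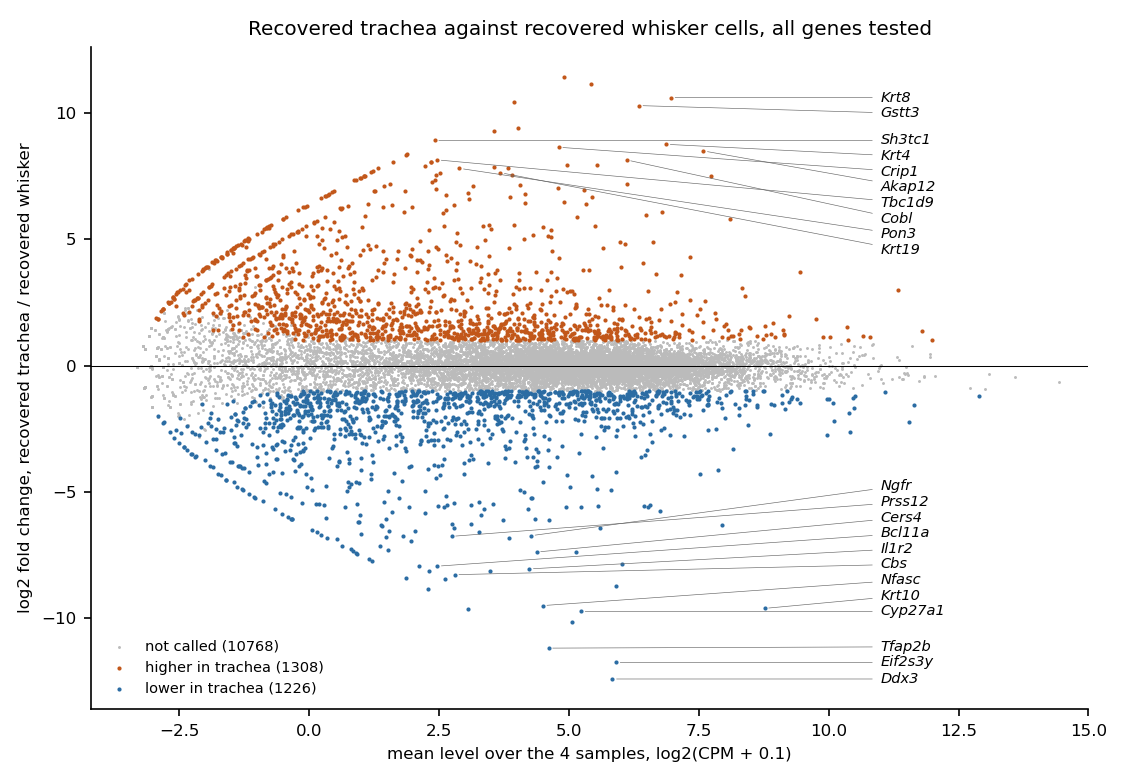
Log2 fold change of recovered trachea over recovered whisker cells (vertical axis) against the mean level over the 4 samples as log2(CPM + 0.1) (horizontal axis), 1 point per gene, with 1308 genes called higher in orange, 1226 called lower in blue and the others in grey. Labels give named genes at both ends, and the curved edges on the left hold genes at or near 0 in a group, whose fitted fold changes depend on the prior count.

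Keratins of simple and mucosal epithelia were higher in the recovered tracheal cells, and this held for all 4 of them that were measured and named. Krt8 was at 242 and 257 CPM in the tracheal samples and at 0.0461 and 0.328 CPM in the whisker samples (log2 fold change 10.61 ± 0.68 (SE), adjusted p = 2.33e-09). Krt18, which encodes the partner of keratin 8 in the filament, was at 7.70 and 6.05 CPM against 0.138 and 0 CPM (a ratio of 104 between the groups, 95% counting interval 35.3 to 508, adjusted p = 3.95e-06). Neither tracheal sample came near the whisker samples in these 2 genes. Krt4 was at 229 and 238 CPM in trachea and 0.737 and 0.368 CPM in whisker (log2 fold change 8.76 ± 1.37 (SE), adjusted p = 5.12e-05). Krt19 was at 24.3 and 26.2 CPM against 0.0461 and 0.205 CPM (log2 fold change 7.64 ± 0.79 (SE), adjusted p = 5.96e-07). Krt10 stood at the other end, with 1.27 and 0.948 CPM in the tracheal samples and 821 and 917 CPM in the whisker samples (log2 fold change -9.62 ± 0.35 (SE), adjusted p = 4.13e-12). Groups that do not overlap were required of the genes named here and below for their size of change, so this is no result for them.

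The sequences around the start sites of 4 of these keratin genes, 3 high in trachea and 1 high in whisker, are given because these genes separated the groups in opposite directions. They were taken from RefSeq (assembly GRCr8, 250 bases before to 50 bases after the start site, written in the direction of the gene). Of the 5 keratins, 4 matched an entry by symbol. The Krt8 sequence lies at chr7:135010290-135010589 on the minus strand, that of Krt18 at chr7:135035918-135036217 on the plus strand, that of Krt4 at chr7:134930664-134930963 on the minus strand and that of Krt10 at chr10:84839111-84839410 on the minus strand. Capitals mark matches to a TATA box (TATAAA, either strand) or to the AP-2 motif (GCCNNNGGC, its own reverse complement), the latter searched because an AP-2 gene, Tfap2b, was among the genes highest in whisker cells.
Krt8: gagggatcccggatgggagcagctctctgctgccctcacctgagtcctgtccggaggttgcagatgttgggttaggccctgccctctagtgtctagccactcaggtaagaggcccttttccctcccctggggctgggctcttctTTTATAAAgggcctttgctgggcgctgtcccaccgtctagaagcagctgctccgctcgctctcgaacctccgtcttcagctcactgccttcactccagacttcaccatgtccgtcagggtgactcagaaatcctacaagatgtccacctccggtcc
Krt18: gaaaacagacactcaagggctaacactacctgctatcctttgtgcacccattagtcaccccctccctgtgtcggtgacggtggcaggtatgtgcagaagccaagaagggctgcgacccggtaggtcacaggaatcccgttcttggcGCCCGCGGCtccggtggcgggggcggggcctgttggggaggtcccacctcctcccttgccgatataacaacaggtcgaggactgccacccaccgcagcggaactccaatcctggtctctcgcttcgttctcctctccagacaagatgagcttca
Krt4: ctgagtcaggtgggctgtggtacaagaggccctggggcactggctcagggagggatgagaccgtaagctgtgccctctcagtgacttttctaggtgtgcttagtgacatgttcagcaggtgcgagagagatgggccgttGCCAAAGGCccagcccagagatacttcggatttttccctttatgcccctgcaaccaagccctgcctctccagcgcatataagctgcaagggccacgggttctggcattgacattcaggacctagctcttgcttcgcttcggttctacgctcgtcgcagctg
Krt10: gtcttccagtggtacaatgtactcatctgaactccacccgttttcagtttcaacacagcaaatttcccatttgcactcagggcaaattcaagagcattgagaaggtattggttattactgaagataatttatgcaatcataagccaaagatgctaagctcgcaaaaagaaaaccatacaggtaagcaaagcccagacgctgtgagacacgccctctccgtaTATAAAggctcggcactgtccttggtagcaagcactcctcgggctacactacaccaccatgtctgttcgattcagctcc

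A TATA box starts 29 bases before the start site in Krt10. In Krt8, 2 overlapping matches on the 2 strands start 106 and 104 bases before it. Krt18 and Krt4 hold an AP-2 match instead, 104 and 111 bases before the start site. The Krt8 sequence has an atg, the usual first codon of a protein, exactly at the start site taken. In Krt10 the atg of the sequence atgtctgttcga lies downstream of the start site. The start site taken for Krt8 may thus be that of translation. Its distances cannot be compared with that of the TATA box in Krt10. Of 33469 promoter windows of the same length, 14.2% held a TATA box and 15.1% held an AP-2 match, so that either match is common, and a match is not a binding site.

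The other genes highest in trachea among the named ones spanned enzymes, scaffolds and regulators. Gstt3, a glutathione transferase, was at 153 and 172 CPM in trachea and 0.0921 and 0.123 CPM in whisker (log2 fold change 10.30 ± 0.73 (SE), adjusted p = 7.45e-09). Akap12, a scaffold of protein kinase A, was at 384 and 384 CPM against 0.967 and 1.105 CPM (log2 fold change 8.50 ± 0.33 (SE), adjusted p = 8.16e-12). In both genes the whisker samples were near or under about 1 CPM and the tracheal samples far above. Cobl, an actin nucleator, was at 140.2 and 135 CPM against 0.368 and 0.573 CPM (log2 fold change 8.14 ± 0.30 (SE), adjusted p = 4.97e-12). Crip1, a small LIM domain protein, was at 53.01 and 57.9 CPM against 0.0461 and 0.246 CPM (log2 fold change 8.65 ± 0.79 (SE), adjusted p = 1.36e-07). Pon3, a paraoxonase, was at 14.7 and 14.4 CPM against 0.0461 and 0.0409 CPM (a ratio of 336 between the groups, 95% counting interval 92.8 to 2780, adjusted p = 1.91e-07). That the groups were apart in each of these was required by the naming rule. Sh3tc1 was at 9.72 and 11.2 CPM in trachea and had 0 counts in both whisker samples (at least 80.2-fold higher in trachea, adjusted p = 3.39e-08). Tbc1d9 was at 10.99 and 10.6 CPM against 0 and 0.0409 CPM (a ratio of 497 between the groups, 95% counting interval 88.9 to 19700, adjusted p = 7.17e-08). Most of these genes were not highest in trachea among the recovered non-whisker tissues, by group mean. Bladder was at 182 CPM of Gstt3, 530 CPM of Akap12, 21.6 CPM of Sh3tc1 and 15.2 CPM of Tbc1d9. Thymus was at 100.1 CPM of Pon3. Crip1 and Cobl were highest in trachea, with bladder next at 0.539 and 82.0 CPM.

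The genes lowest in trachea were led by a marker of the donor's sex. Eif2s3y, a gene of the Y chromosome, was at 0.0469 and 0 CPM in trachea and 122 and 118 CPM in whisker (a ratio of 5830 between the groups, 95% counting interval 1050 to 230000, adjusted p = 1.19e-08). Ddx3, listed under this symbol, had 0 counts in both tracheal samples and 98.9 and 129 CPM in whisker (at least 912-fold lower in trachea, adjusted p = 1.31e-08). Both genes were under 0.1 CPM on average in every thymic, tracheal and vaginal group and above 90 CPM in every bladder and whisker group. Sex of the donor and tissue therefore cannot be told apart between trachea and whisker.

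Among the other genes lowest in trachea, Cyp27a1, the mitochondrial sterol 27-hydroxylase, was at 0 and 0.255 CPM against 63.7 and 86.01 CPM (log2 fold change -9.74 ± 0.96 (SE), adjusted p = 3.37e-07). Nfasc, the adhesion protein neurofascin, was at 0.0469 and 0.0365 CPM against 45.8 and 44.01 CPM (a ratio of 1090 between the groups, 95% counting interval 302 to 9030, adjusted p = 1.49e-10). Cbs, which makes cystathionine from homocysteine, was at 0.0939 and 0 CPM against 14.6 and 12.8 CPM (a ratio of 333 between the groups, 95% counting interval 91.7 to 2750, adjusted p = 7.23e-07). All 3 were close to absent from the recovered tracheal cells. Nfasc was also under 1 CPM on average in recovered bladder, vagina and thymus (0.203, 0.530 and 0.163 CPM). Cyp27a1 was so in vagina only, and Cbs in none of them. Il1r2, the decoy receptor of interleukin 1, was at 0.0939 and 0.146 CPM against 35.3 and 39.5 CPM (log2 fold change -8.06 ± 0.43 (SE), adjusted p = 2.47e-10). Cers4, a ceramide synthase, was at 0.141 and 0.328 CPM against 39.1 and 43.03 CPM (log2 fold change -7.39 ± 0.55 (SE), adjusted p = 1.35e-08). Prss12, the protease neurotrypsin, was at 0.141 and 0.07295 CPM against 12.6 and 13.5 CPM (log2 fold change -6.77 ± 0.57 (SE), adjusted p = 5.79e-08). The naming rule also required that the groups be apart in each of them.

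**Figure D2:**
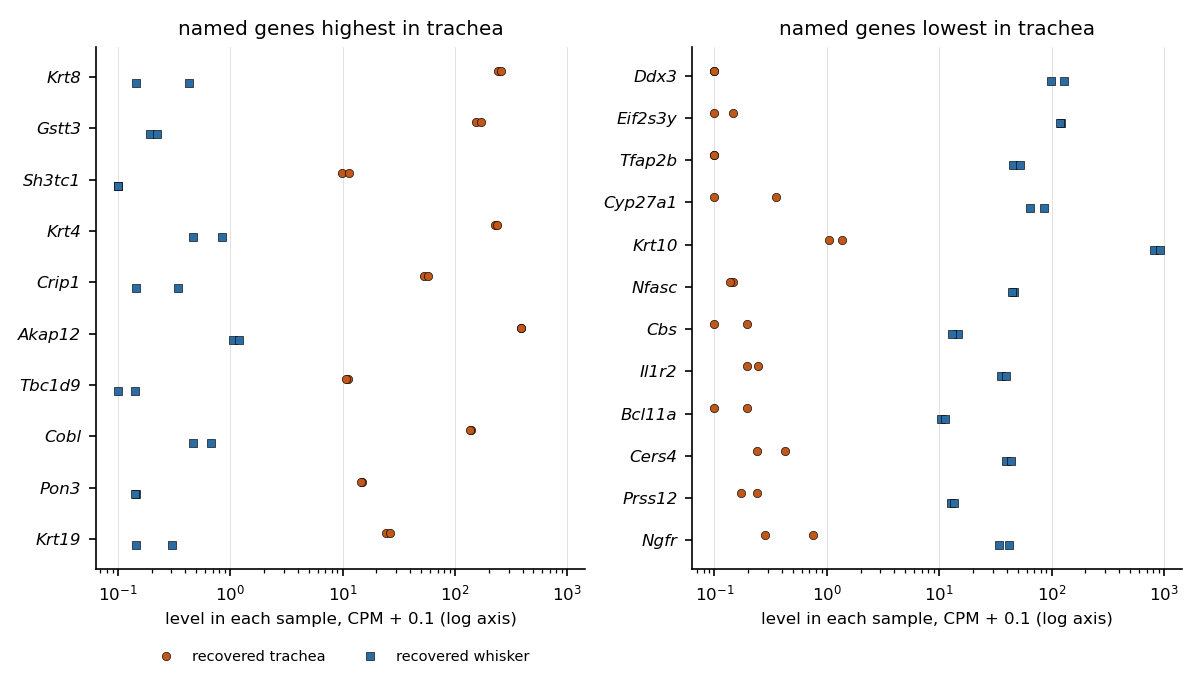
Level in each of the 4 samples as CPM + 0.1 on a log axis, for 10 named genes among the highest in trachea (left) and the 12 lowest (right), with tracheal samples as orange circles and whisker samples as blue squares. The groups do not overlap in any of these genes, which the naming rule required, and the 2 samples of a group lie close together except where a group has only a few counts.

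Transcription factors of foregut and airway were measured and named for 15 genes, of which 6 were higher and 3 lower in trachea, with a median log2 fold change of 0.12. Foxa1, a forkhead factor of endodermal epithelia, was at 12.3 and 10.9 CPM in trachea and 0.0921 and 0.246 CPM in whisker (log2 fold change 6.02 ± 0.89 (SE), adjusted p = 2.95e-05). Isl1, a LIM homeobox factor, was at 9.296 and 10.4 CPM against 0.0461 and 0 CPM (a ratio of 458 between the groups, 95% counting interval 81.9 to 18100, adjusted p = 1.27e-08). Both were at under 0.5 CPM in each whisker sample. Tbx1 went the other way, at 1.36 and 0.875 CPM in trachea and 83.2 and 107 CPM in whisker (log2 fold change -6.44 ± 0.41 (SE), adjusted p = 2.07e-09), and so did Tbx3 at 6.34 and 5.398 CPM against 17.6 and 17.5 CPM (log2 fold change -1.59 ± 0.17 (SE), adjusted p = 1.07e-06). The called share of the list, 60.0%, stands beside 45.2% of all named genes. Of 3 Hox genes measured and named, 2 were higher in trachea, and both stayed under 3 CPM in each sample.

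Genes of hair follicle stem cells and lineages were more often lower than higher in trachea. Of 28 measured and named, 12 were lower and 4 higher, with a median log2 fold change of -0.83. All genes tested, most of them without a name, had a median of 0.01. The called share of the list, 57.1%, stands beside 45.2% of all named genes. The summed level of the list was close in the groups, 914.5 and 953 CPM in trachea and 950.7 and 981.2 CPM in whisker. Tfap2b, an AP-2 factor, had 0 counts in both tracheal samples and was at 45.2 and 51.8 CPM in whisker (at least 388-fold lower in trachea, adjusted p = 2.97e-09). Bcl11a, a zinc finger repressor, was at 0.0939 and 0 CPM against 10.3 and 11.3 CPM (a ratio of 263 between the groups, 95% counting interval 72.5 to 2180, adjusted p = 3.37e-07). Of these 4 samples, the tracheal ones were at or near 0 in both genes. Low Tfap2b was not particular to trachea, since recovered bladder cells had 0 counts. Recovered thymus was at 0.0377 CPM of Tfap2b on average and vagina at 8.28 CPM. Bcl11a was at 0.909 CPM in bladder, 7.24 CPM in vagina and 3.60 CPM in thymus. Gli1, a target of the Hedgehog pathway that marks part of the follicle, was at 1.22 and 1.79 CPM against 12.9 and 14.2 CPM (log2 fold change -3.15 ± 0.24 (SE), adjusted p = 1.43e-08). Of 6 genes of hair shaft and inner root sheath, 2 were higher in trachea. These were Padi1, which converts arginine to citrulline in proteins, at 19.5 and 20.2 CPM against 1.43 and 1.76 CPM (log2 fold change 3.62 ± 0.22 (SE), adjusted p = 1.06e-09), and Dsc2, a desmosomal cadherin that is also widespread outside hair, at 795 and 790.0 CPM against 331 and 345 CPM (log2 fold change 1.23 ± 0.14 (SE), adjusted p = 1.66e-06). The 1 gene that was lower was Dsc1, a desmosomal cadherin of upper epidermal layers, at 0.329 and 0.474 CPM against 2.67 and 3.48 CPM.

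Genes of epidermal differentiation were lower in trachea far more often than higher. Of 38 genes measured and named, 21 were lower and 2 higher in trachea, and the median log2 fold change was -1.68. Besides Krt10, Klk7, a protease of corneocyte shedding, was at 0.0939 and 0.328 CPM in trachea and 21.2 and 12.4 CPM in whisker (log2 fold change -6.26 ± 0.72 (SE), adjusted p = 2.05e-06). Il36rn, the antagonist of the interleukin 36 receptor, was at 1.93 and 1.97 CPM against 87.2 and 97.5 CPM (log2 fold change -5.55 ± 0.21 (SE), adjusted p = 4.97e-12). Dsg1, the desmosomal cadherin of differentiating epidermis, was at 7.79 and 7.26 CPM against 31.1 and 32.2 CPM (log2 fold change -2.08 ± 0.23 (SE), adjusted p = 1.01e-06). The 2 genes that were higher in trachea do not belong to the envelope itself. Cldn1, a tight junction protein, was at 464 and 465 CPM against 168 and 183 CPM (log2 fold change 1.41 ± 0.20 (SE), adjusted p = 2.49e-05), and Clic3, an intracellular chloride channel protein, was at 27.5 and 27.4 CPM against 6.54 and 6.39 CPM (log2 fold change 2.08 ± 0.18 (SE), adjusted p = 6.65e-08). The other 15 genes were not called.

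Basal cell genes of stratified epithelia were expressed in both groups. Of 13 measured and named, 4 were lower and 0 higher in trachea, and their summed level was 10230 and 9991 CPM in the tracheal samples and 17170 and 19160 CPM in the whisker samples. This share of called genes, 30.8%, is under that of all named genes. Ngfr, the low-affinity nerve growth factor receptor and a surface marker of airway basal cells, was at 0.657 and 0.182 CPM in trachea and 41.95 and 33.98 CPM in whisker (log2 fold change -6.74 ± 0.45 (SE), adjusted p = 3.65e-09). Col17a1, a collagen of the hemidesmosome, was at 1059 and 1010 CPM against 4856 and 4966 CPM (log2 fold change -2.25 ± 0.20 (SE), adjusted p = 1.03e-07). Dsc3, a desmosomal cadherin of basal layers, was at 582 and 554 CPM against 1509 and 1690 CPM (log2 fold change -1.49 ± 0.09 (SE), adjusted p = 9.94e-10). Ngfr was under 1 CPM in each tracheal sample, while the other two kept levels above 500 CPM there. Among basement membrane genes, 4 of 10 were higher and 2 lower in trachea. Adamts1, a metalloprotease of the matrix, was at 28.2 and 29.4 CPM against 4.28 and 2.95 CPM (log2 fold change 3.03 ± 0.45 (SE), adjusted p = 3.15e-05), and Itgb8, an integrin subunit, was at 2.82 and 2.59 CPM against 32.2 and 34.8 CPM (log2 fold change -3.63 ± 0.26 (SE), adjusted p = 7.49e-09).

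Airway secretory genes were more often higher than lower in recovered trachea against recovered whisker cells, but not against the other recovered tissues below. Of 23 measured and named, 12 were higher and 4 lower, with a median log2 fold change of 2.24, or 1.41 with genes at 0 in a group set at their bound. Tspan8, a membrane tetraspanin, was at 491 and 581 CPM against 11.1 and 8.56 CPM (log2 fold change 5.79 ± 0.21 (SE), adjusted p = 4.13e-12). Cftr, the chloride channel of airway secretion, was at 7.18 and 6.16 CPM against 0 and 0.368 CPM (log2 fold change 6.07 ± 1.01 (SE), adjusted p = 9.09e-05). Tspan1, a second tetraspanin, was at 5.49 and 5.91 CPM against 0.2302 and 0 CPM (log2 fold change 6.37 ± 1.39 (SE), adjusted p = 0.00101). Genes of the same list also ran the other way. Car12, a carbonic anhydrase, was at 401 and 391 CPM in trachea and 1727 and 1904 CPM in whisker (log2 fold change -2.19 ± 0.08 (SE), adjusted p = 5.03e-12), Cldn3, a tight junction protein, was at 32.7 and 33.5 CPM against 119.9 and 112 CPM (log2 fold change -1.81 ± 0.15 (SE), adjusted p = 4.21e-08), and the proton pump gene Atp12a was at 0.141 and 0 CPM against 8.01 and 2.99 CPM (a ratio of 86.9 between the groups, 95% counting interval 29.4 to 424, adjusted p = 0.000274). The fourth, Sftpc, the surfactant protein C of alveolar cells, had 0 counts in trachea and 3.82 and 1.597 CPM in whisker. Although more of its genes were higher, the summed level of the list was lower in trachea, 1612 and 1679 CPM against 2714 and 2771 CPM. Car12 alone held 401 and 391 CPM of the tracheal sums and 1727 and 1904 CPM of the whisker sums. The order of the sums rested on this gene and does not describe the rest of the list. Further secretory markers were higher at low levels, such as Cyp2f4, a cytochrome P450 of club cells, at 3.43 and 2.63 CPM against 0.184 and 0.164 CPM, and Pigr, the receptor that carries IgA across epithelia, at 0.610 and 0.438 CPM with 1 count in whisker. Cxcl17, an airway chemokine, had 0 counts in all 4 samples, and Agr3, a protein of the secretory pathway, had 2 counts in each tracheal and 0 in each whisker sample. Of 11 ciliated cell genes, 5 were higher and 2 lower, and Dnai2, an axonemal dynein subunit, was the one of them above 5 CPM, at 14.2 and 13.3 CPM against 0.414 and 0.287 CPM (log2 fold change 5.24 ± 0.57 (SE), adjusted p = 1.07e-06).

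Genes for the first step of prostaglandin synthesis differed in transcript level. Ptgs1 and Ptgs2 encode the cyclooxygenases that convert arachidonic acid to the common prostaglandin precursor. Ptgs1 was at 123 and 122 CPM in trachea and 4.74 and 3.56 CPM in whisker (log2 fold change 4.90 ± 0.16 (SE), adjusted p = 1.95e-12). Ptgs2 was at 189 and 190.0 CPM against 5.85 and 6.75 CPM (log2 fold change 4.91 ± 0.21 (SE), adjusted p = 2.62e-11). The 2 log2 fold changes lay within 1 SE of each other. Akr1b8, an aldo-keto reductase, was at 548 and 512 CPM against 191 and 190.2 CPM (log2 fold change 1.47 ± 0.13 (SE), adjusted p = 7.1e-08). Ptges, the inducible prostaglandin E synthase, was at 81.7 and 82.95 CPM against 44.1 and 39.5 CPM and was not called, since its log2 fold change of 0.98 missed the fold limit while its adjusted p was 6.79e-07. Over the list, 5 of 14 genes were higher and 2 lower.

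Genes that interferons induce were mostly higher in trachea. Of 18 measured and named, 11 were higher and 1 lower, with a median log2 fold change of 1.801. Slfn5, a Schlafen family gene, was at 34.4 and 36.04 CPM against 0.184 and 0.4503 CPM (log2 fold change 6.80 ± 0.41 (SE), adjusted p = 1.17e-09). Sp140, a nuclear body protein, was at 43.2 and 44.4 CPM against 0.737 and 1.23 CPM (log2 fold change 5.48 ± 0.27 (SE), adjusted p = 8.78e-11). Ifi47, an interferon-inducible GTPase, was at 13.3 and 12.8 CPM against 1.47 and 0.983 CPM (log2 fold change 3.43 ± 0.36 (SE), adjusted p = 8.31e-07). The 1 gene that was lower was the chemokine Cxcl10, at 4.88 and 4.85 CPM against 20.03 and 19.0 CPM (log2 fold change -1.998 ± 0.38 (SE), adjusted p = 0.000288). Of 10 antigen presentation genes 3 were higher, the largest difference being at Vtcn1, a B7 family inhibitor of T cells, at 8.22 and 10.1 CPM against 0.552 and 0.573 CPM (log2 fold change 3.98 ± 0.41 (SE), adjusted p = 6.23e-07). The other 2, Ciita and Nlrc5, both regulators of MHC gene transcription, fell under the fold limit when certain single libraries were left out. The log2 fold change of Ciita was 1.03, and without trachea replicate 1 or whisker replicate 2 it was 0.88 or 0.98, under the fold limit. That of Nlrc5 was 1.26, and 0.99 without whisker replicate 2.

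Cytokines, chemokines and innate defence genes pointed both ways, with 6 of 40 higher and 14 lower in trachea. Besides Il1r2 and Il36rn, Casp1, the protease that activates interleukin 1 beta, was at 0.329 and 0.292 CPM against 12.2 and 11.5 CPM (log2 fold change -5.17 ± 0.40 (SE), adjusted p = 1.79e-08). In all 3 the whisker samples stood above every tracheal sample, which the naming rule required of Il1r2. On the higher side stood complement C3 at 8.17 and 8.13 CPM against 1.84 and 1.43 CPM (log2 fold change 2.32 ± 0.33 (SE), adjusted p = 1.88e-05), the chemokine Cxcl6 at 60.9 and 68.4 CPM against 27.03 and 23.1 CPM (log2 fold change 1.37 ± 0.20 (SE), adjusted p = 2.6e-05) and Tnfaip3, an inhibitor of NF-kappaB signalling, at 24.1 and 24.1 CPM against 9.03 and 9.78 CPM (log2 fold change 1.36 ± 0.16 (SE), adjusted p = 2.6e-06).

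In the BMP, activin and TGF-beta pathway, 6 of 18 genes were higher and 8 lower in trachea, a called share of 77.8%. The ligands were divided. Bmp3 was at 124 and 127 CPM in trachea and 26.7 and 26.4 CPM in whisker (log2 fold change 2.24 ± 0.11 (SE), adjusted p = 8.82e-11), and Bmp8b was at 22.4 and 23.7 CPM against 2.12 and 2.25 CPM (log2 fold change 3.39 ± 0.21 (SE), adjusted p = 1.35e-09). Bmp2 was lower, at 2.07 and 1.86 CPM against 10.9 and 13.4 CPM (log2 fold change -2.63 ± 0.22 (SE), adjusted p = 5.38e-08). Tgfbi, a matrix protein that TGF-beta induces, was at 69.7 and 67.4 CPM against 386 and 390.3 CPM (log2 fold change -2.50 ± 0.15 (SE), adjusted p = 1.12e-09), and Fstl1, a secreted follistatin-like protein, was at 3.24 and 2.44 CPM against 41.1 and 35.98 CPM (log2 fold change -3.78 ± 0.25 (SE), adjusted p = 3.44e-09).

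In the Hedgehog pathway, 3 of 6 were lower and 1 higher, a called share of 66.7%, and with Gli1 the factor Gli2 was lower, at 11.8 and 10.7 CPM against 24.2 and 25.6 CPM (log2 fold change -1.15 ± 0.12 (SE), adjusted p = 4.29e-07). In the Notch pathway, 3 of 10 were lower and 1 higher. The ligand Dll1 was at 30.8 and 32.7 CPM against 88.4 and 88.8 CPM (log2 fold change -1.48 ± 0.11 (SE), adjusted p = 1.76e-08), and Dlk2, an inhibitory homologue, was at 20.9 and 20.9 CPM against 116 and 105 CPM (log2 fold change -2.40 ± 0.14 (SE), adjusted p = 4.82e-10). The third, Dtx4, had a log2 fold change of -1.05, and of -0.96 without trachea replicate 2. In the Wnt pathway, 5 of 21 were higher and 2 lower. The ligand Wnt4 was at 178 and 190.3 CPM in trachea against 84.2 and 70.7 CPM (log2 fold change 1.26 ± 0.13 (SE), adjusted p = 6.2e-07), and Apc2, a component of beta-catenin turnover, was at 6.81 and 7.48 CPM against 0.552 and 0.205 CPM (log2 fold change 4.34 ± 0.54 (SE), adjusted p = 4.46e-06). In EGF and FGF signalling, 3 of 12 were higher and 2 lower. The ligands Areg and Nrg1 were higher, Areg at 119 and 118 CPM against 56.8 and 57.8 CPM (log2 fold change 1.05 ± 0.23 (SE), adjusted p = 0.000907) and Nrg1 at 165 and 150.4 CPM against 75.2 and 65.8 CPM (log2 fold change 1.17 ± 0.11 (SE), adjusted p = 2.3e-07), whereas the feedback inhibitor Errfi1 was at 163 and 160.4 CPM against 343 and 377 CPM (log2 fold change -1.15 ± 0.08 (SE), adjusted p = 3.99e-09). The called shares of the Notch, Wnt, and EGF and FGF lists were 40.0%, 33.3% and 41.7%, each under the 45.2% of all named genes. The third gene higher in the EGF and FGF list, Etv5, had a log2 fold change of 1.09, and of 0.97 without trachea replicate 1.

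Enzymes of xenobiotic and glutathione metabolism were more often higher than lower in trachea, 15 against 3 of 33 measured and named. With Gstt3, the gamma-glutamyl transferase Ggt1 was at 48.7 and 48.5 CPM against 2.16 and 1.97 CPM (log2 fold change 4.55 ± 0.31 (SE), adjusted p = 5.38e-09), and the aldo-keto reductase Akr7a3 was at 15.96 and 16.1 CPM against 0.737 and 1.06 CPM (log2 fold change 4.13 ± 0.26 (SE), adjusted p = 1.41e-09). The carboxylesterase Ces2g was lower, at 192 and 194 CPM against 581 and 616 CPM (log2 fold change -1.63 ± 0.06 (SE), adjusted p = 4.93e-12), and so was the aldehyde dehydrogenase Aldh3a1, at 22.1 and 24.7 CPM against 53.3 and 52.4 CPM (log2 fold change -1.17 ± 0.10 (SE), adjusted p = 6.26e-08). Of 12 genes of retinoid metabolism, 6 were higher and 2 lower. Aldh1a3, which makes retinoic acid, was at 31.5 and 31.3 CPM against 4.14 and 3.32 CPM (log2 fold change 3.08 ± 0.23 (SE), adjusted p = 1.65e-08), and Bco2, a carotenoid-cleaving enzyme, was at 54.6 and 54.6 CPM against 5.39 and 9.62 CPM (log2 fold change 2.90 ± 0.18 (SE), adjusted p = 1.85e-09).

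Ion transport genes were divided, with 11 of 36 higher and 10 lower in trachea. Clic6, an intracellular chloride channel protein, was at 29.5 and 29.5 CPM against 0.2302 and 0.0819 CPM (log2 fold change 7.54 ± 1.12 (SE), adjusted p = 3.1e-05). Clca4l, of the family of calcium-activated chloride channel regulators, was at 32.3 and 37.6 CPM against 0.322 and 0.4503 CPM (log2 fold change 6.43 ± 1.42 (SE), adjusted p = 0.00113), and this family has near copies between which reads may not be assigned. On the whisker side, the taurine transporter Slc6a6 was at 3.71 and 3.39 CPM in trachea against 106 and 111 CPM (log2 fold change -4.93 ± 0.32 (SE), adjusted p = 2.07e-09), and the carbonic anhydrase Car2 was at 0.986 and 0.985 CPM against 41.5 and 34.7 CPM (log2 fold change -5.24 ± 0.27 (SE), adjusted p = 1.97e-10). Of 36 adhesion and guidance genes, 10 were higher and 9 lower. Cdh2, N-cadherin, was at 0.282 and 0.219 CPM against 10.8 and 13.4 CPM (log2 fold change -5.51 ± 0.47 (SE), adjusted p = 7.29e-08), and Chl1, a neural adhesion protein, was at 1.13 and 1.13 CPM against 14.6 and 16.3 CPM (log2 fold change -3.75 ± 0.30 (SE), adjusted p = 2.58e-08). Ceacam1, an adhesion protein of epithelia, was at 176 and 151 CPM against 21.7 and 20.02 CPM (log2 fold change 2.97 ± 0.12 (SE), adjusted p = 1.49e-11), and Ntng2, a netrin relative, was at 59.4 and 58.95 CPM against 7.46 and 7.74 CPM (log2 fold change 2.96 ± 0.14 (SE), adjusted p = 8.02e-11).

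Among proliferation genes, the called share of 40.0% was under the 45.2% of all named genes. Of 30 measured and named, 8 were lower and 4 higher in trachea, and the median log2 fold change was -0.54. Those that were lower act in mitosis, replication and chromatin assembly. Cenpf, a kinetochore protein, was at 39.9 and 38.6 CPM against 89.6 and 110.4 CPM (log2 fold change -1.34 ± 0.27 (SE), adjusted p = 0.000484), and Bub1b, a spindle checkpoint kinase, was at 13.8 and 13.1 CPM against 35.2 and 34.6 CPM (log2 fold change -1.38 ± 0.18 (SE), adjusted p = 8.34e-06). Those that were higher regulate the G1 phase, 2 of them as activators and 2 (Cdkn2a and Cdkn2b) as inhibitors. The cyclin gene Ccnd2 was at 318 and 293 CPM against 69.6 and 58.8 CPM (log2 fold change 2.25 ± 0.14 (SE), adjusted p = 2.29e-09), the cyclin gene Ccne1 was at 67.2 and 68.9 CPM against 21.7 and 16.2 CPM (log2 fold change 1.86 ± 0.12 (SE), adjusted p = 2.11e-09), and Cdkn2b, an inhibitor of cyclin D kinases, was at 95.1 and 106 CPM against 29.3 and 27.7 CPM (log2 fold change 1.82 ± 0.16 (SE), adjusted p = 8.31e-08).

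Markers of other cell types were read in both groups. The fibroblast markers summed to 568 and 566 CPM in trachea and 511 and 536 CPM in whisker. Of 15 fibroblast markers, 1 was higher and 3 were lower in trachea, and Col1a1 was at 25.8 and 25.9 CPM against 23.9 and 22.8 CPM (log2 fold change 0.15 ± 0.20 (SE), adjusted p = 0.567). Of 7 immune cell markers, 4 were higher, of which Cd68, a lysosomal protein that is not restricted to macrophages, was at 61.9 and 55.1 CPM against 10.04 and 12.7 CPM (log2 fold change 2.36 ± 0.12 (SE), adjusted p = 1.13e-10). The other 6 were under 1.5 CPM in every sample, and Clec12a had 0 counts in all 4. The 3 endothelial markers were higher, with a summed level of 11.3 and 10.9 CPM in trachea and 2.03 and 0.737 CPM in whisker (Eng, Esam and Calcrl). Of 3 urothelial and thymic markers 2 were higher, both of them uroplakin genes, Upk1b at 21.1 and 22.6 CPM against 1.66 and 1.72 CPM (log2 fold change 3.68 ± 0.29 (SE), adjusted p = 2.42e-08) and Upk3bl at 12.3 and 11.2 CPM against 0.645 and 0.655 CPM (log2 fold change 4.13 ± 0.51 (SE), adjusted p = 4.02e-06). Of 4 muscle and cartilage markers, 1 was higher, and the 4 together had 4.13 and 2.96 CPM in trachea and 2.35 and 1.51 CPM in whisker. The part of these markers in the results above was not tested, and fewer cells of a type and less RNA per cell cannot be told apart in bulk samples.

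**Figure D3:**
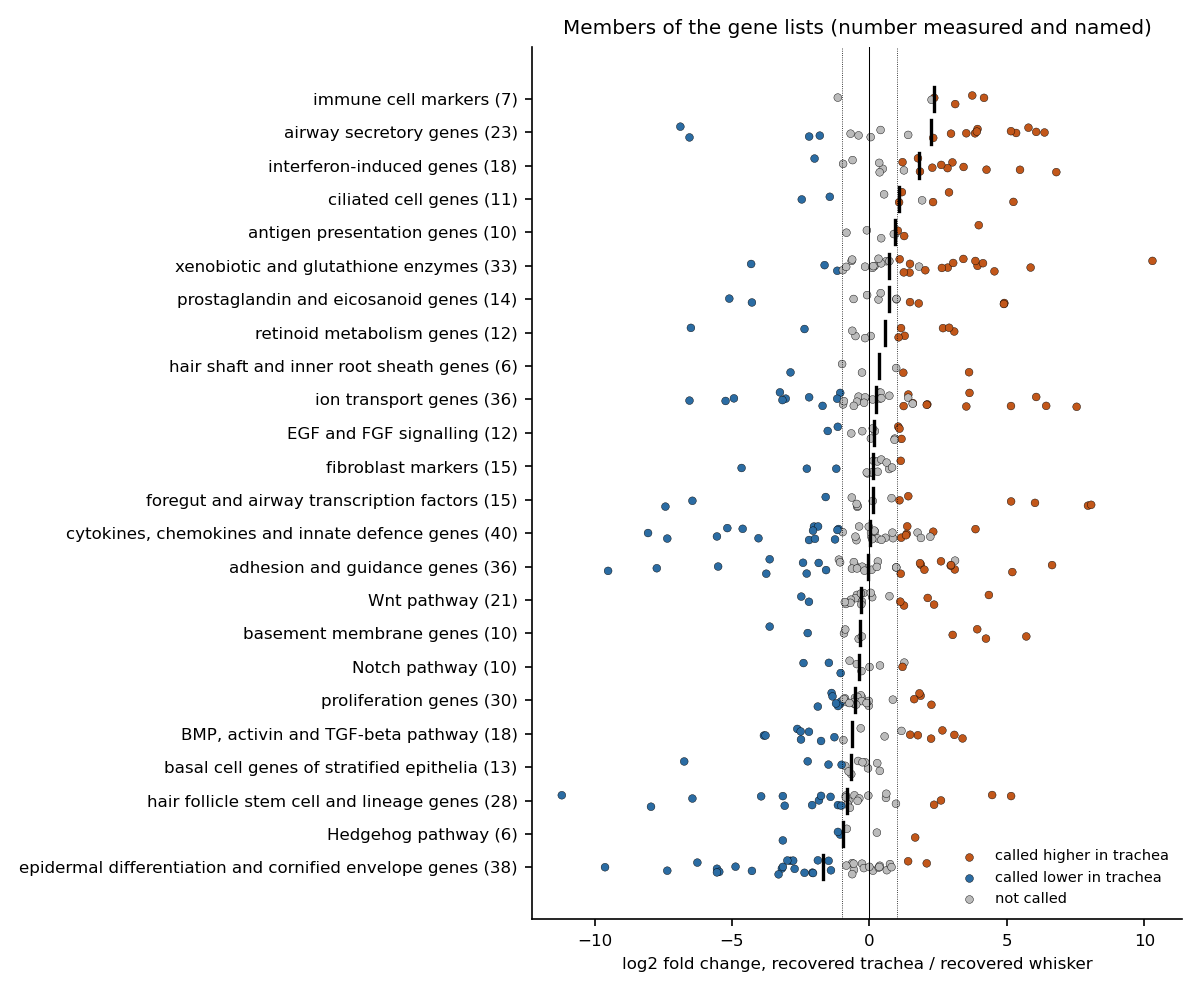
Log2 fold change of recovered trachea over recovered whisker cells for the members of each gene list with at least 6 members measured and named, 1 point per gene, orange where called higher, blue where called lower and grey where not called, with the median of the list as a black bar and dotted lines at -1 and 1. Members with at most 3 counts in every sample are not drawn, and the epidermal differentiation list has the lowest median, -1.68.

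Whether the difference between trachea and whisker changed between the rounds was tested as the difference after recovery minus the difference before transplantation. Between the rounds lay the stay in skin, a further culture and, for whisker, the step from clone Cl7 to subclone scl14, and these cannot be told apart. It changed at 1760 of 13302 genes (13.2%), upward at 816 (6.13%) and downward at 944 (7.10%). Of the 38 epidermal differentiation genes, 19 changed upward and 0 downward, beside 14.0% upward among all named genes and 29.9% in either direction. Il36rn went in tracheal cells from 0.0201 ± 0.0285 CPM (SD, n = 2) to 1.95 ± 0.0316 CPM, whereas whisker cells held 132 ± 12.5 CPM and 92.4 ± 7.29 CPM (change of the log2 difference 6.37 ± 0.71 (SE), adjusted p = 5.95e-06). Dsg1 went from 0.551 ± 0.0177 CPM to 7.53 ± 0.378 CPM in trachea and from 48.5 ± 13.8 CPM to 31.7 ± 0.772 CPM in whisker (4.31 ± 0.59 (SE), adjusted p = 4.37e-05). Both remained lower in trachea than in whisker after recovery. Krt10 did not follow them. It was at 1.08 ± 0.118 CPM and 1.11 ± 0.226 CPM in trachea before and after, and at 1533 ± 258 CPM and 869 ± 68.1 CPM in whisker (change of the log2 difference 0.81 ± 0.49 (SE), adjusted p = 0.211).

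Outside this list, Fxyd4, a regulator of the sodium pump, came from 1.11 ± 0.314 CPM in tracheal cells before transplantation to 34.8 ± 2.24 CPM after it, while whisker cells went from 132 ± 6.14 CPM to 51.8 ± 0.543 CPM (6.34 ± 0.33 (SE), adjusted p = 1.51e-09). Aqp9, an aquaglyceroporin, went from 1.003 ± 0.00441 CPM to 26.2 ± 0.379 CPM in trachea and from 6.15 ± 0.416 CPM to 8.76 ± 0.635 CPM in whisker (4.18 ± 0.34 (SE), adjusted p = 1.92e-07), and was then higher in trachea. Col20a1, a minor collagen, went from 6.101 ± 0.363 CPM to 30.6 ± 0.0728 CPM and from 31.98 ± 4.35 CPM to 10.9 ± 5.53 CPM (3.94 ± 0.41 (SE), adjusted p = 2.72e-06). The difference in Fxyd4 was then under 2-fold, and those of Aqp9 and Col20a1 had changed sign.

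On the downward side, Bcat1, which transfers the amino group of branched-chain amino acids, went from 13.7 ± 0.189 CPM to 0.0547 ± 0.0774 CPM in trachea, while whisker cells held 0.257 ± 0.165 CPM and 0.197 ± 0.0470 CPM (-7.62 ± 1.36 (SE), adjusted p = 0.000469). Aqp5, a water channel of airway glands, went from 20.8 ± 1.95 CPM to 0.451 ± 0.239 CPM in trachea against 0.127 ± 0.114 CPM and 0.153 ± 0.0434 CPM in whisker (-5.92 ± 0.92 (SE), adjusted p = 0.000148). Calcb, a calcitonin gene-related peptide, went from 17.6 ± 3.19 CPM to 1.16 ± 0.578 CPM against 0.138 ± 0.136 CPM and 0.494 ± 0.112 CPM (-5.98 ± 1.58 (SE), adjusted p = 0.00782). These 3 genes were well above whisker in trachea before transplantation and near 1 CPM or less in both groups after it. Dmrt2, a DM domain factor, went from 30.6 ± 0.712 CPM to 10.2 ± 0.921 CPM in trachea and from 0.0442 ± 0.00373 CPM to 1.497 ± 0.0323 CPM in whisker (-6.10 ± 0.68 (SE), adjusted p = 5.7e-06), and stayed higher in trachea. Cyp27a1 was at 5.72 ± 0.0108 CPM in trachea before transplantation and at 0.128 ± 0.181 CPM after it, against 84.7 ± 6.15 CPM and 74.8 ± 15.8 CPM in whisker (-5.86 ± 0.98 (SE), adjusted p = 0.000284). Ptgs2 went from 580.0 ± 8.98 CPM to 189.6 ± 0.499 CPM in trachea and from 3.40 ± 0.367 CPM to 6.30 ± 0.641 CPM in whisker (change of the log2 difference -2.50 ± 0.34 (SE), adjusted p = 4.65e-05).

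By list, 15 of 40 cytokine and innate defence genes, 13 of 30 proliferation genes and 10 of 15 fibroblast markers changed downward, with 7, 0 and 2 upward, beside 15.9% downward among all named genes. Col1a1 was at 153 ± 1.82 CPM in tracheal cells before transplantation and 25.8 ± 0.0859 CPM after it, against 25.9 ± 10.4 CPM and 23.4 ± 0.745 CPM in whisker (-2.49 ± 0.27 (SE), adjusted p = 4.59e-06). The part of cells with fibroblast markers in the changes between rounds was not tested. In groups with 1 to 3 counts, such as Il36rn in trachea and Dmrt2 in whisker before transplantation and Bcat1 in trachea after it, the fitted change depends on the prior count.

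**Figure D4:**
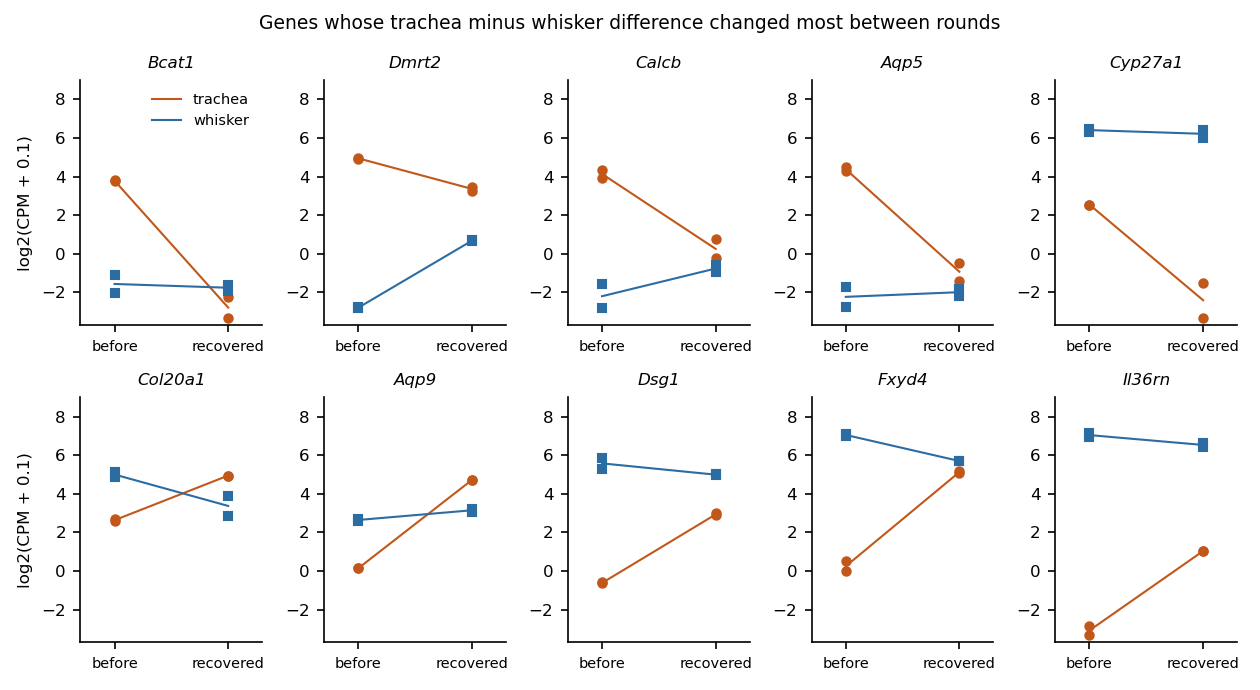
Levels as log2(CPM + 0.1) in trachea (orange circles) and whisker (blue squares) before transplantation and after recovery, 2 samples per group with a line through the group means, for the 5 named genes with the largest downward (upper row) and upward (lower row) change of the trachea minus whisker difference. Bcat1, Calcb and Aqp5 meet near the bottom after recovery, and Fxyd4 in trachea lies near the whisker level after recovery.

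Recovered tracheal cells were also set against the mean of the recovered bladder, vaginal and thymic cells, to show where they stood apart from other cells without hair follicle origin. They differed at 1767 of 13302 genes (13.3%), with 724 (5.44%) higher and 1043 (7.84%) lower in trachea. Crip1 and Bmx, a tyrosine kinase of the Tec family, were the furthest on the higher side. Crip1 was at 55.5 ± 3.48 CPM (SD, n = 2) in trachea, 0.539 ± 0.0894 CPM in bladder, 0.0558 ± 0.0196 CPM in vagina and 0.05897 ± 0.0367 CPM in thymus (log2 difference 8.60 ± 0.46 (SE), adjusted p = 3.98e-10). Bmx was at 77.1 ± 3.47 CPM, 0.158 ± 0.0207 CPM, 1.41 ± 0.0229 CPM and 0.0425 ± 0.0601 CPM in the same order (8.47 ± 0.27 (SE), adjusted p = 1.47e-12). Each was high in the tracheal cells and at under 2 CPM elsewhere. Hgfac, the activator of hepatocyte growth factor, was at 17.5 ± 2.02 CPM in trachea and at most 1.43 ± 0.198 CPM in the others (5.63 ± 0.35 (SE), adjusted p = 2.16e-09). Clic6 was at 29.5 ± 0.00926 CPM in trachea and at most 3.08 ± 0.699 CPM in the others (5.22 ± 0.45 (SE), adjusted p = 8.11e-08). Peg3, an imprinted zinc finger gene, was at 219 ± 1.51 CPM in trachea, 15.9 ± 2.25 CPM in bladder, 0.296 ± 0.123 CPM in vagina and 40.2 ± 1.65 CPM in thymus (5.23 ± 0.32 (SE), adjusted p = 1.7e-09).

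On the lower side, Krt10 was at 229 ± 8.86 CPM in bladder, 329 ± 10.8 CPM in vagina and 13.2 ± 1.65 CPM in thymus, all above the 1.11 ± 0.226 CPM of trachea (-6.50 ± 0.34 (SE), adjusted p = 3.14e-10). Cyp27a1 was at 63.97 ± 1.04 CPM in bladder and 79.7 ± 2.33 CPM in thymus but at 0.683 ± 0.0182 CPM in vagina (-7.46 ± 0.97 (SE), adjusted p = 8.5e-06). Cspg4, a membrane proteoglycan, was at 0.0365 ± 0.0516 CPM in trachea and 31.6 ± 0.450 CPM in vagina (-7.53 ± 0.57 (SE), adjusted p = 1.98e-08), and Cbs was at 0.0469 ± 0.0664 CPM and 16.9 ± 0.521 CPM (-7.01 ± 0.87 (SE), adjusted p = 5.22e-06). Defb4, a beta-defensin, had 0 counts in trachea and was at 51.7 ± 6.63 CPM in thymus (-6.58 ± 0.98 (SE), adjusted p = 3.79e-05), while bladder and vagina had 0.456 ± 0.0964 CPM and 0.3103 ± 0.0944 CPM. Ngfr was lower in trachea here too (-3.68 ± 0.45 (SE), adjusted p = 4.95e-06). With 0 to 2 counts in trachea, the fitted differences of Cspg4, Cbs and Defb4 depend on the prior count.

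The keratins that set trachea apart from whisker were shared with other recovered tissues to different degrees. Krt8 was called higher in trachea (2.45 ± 0.11 (SE), adjusted p = 3.86e-11), although bladder held 278 ± 3.85 CPM beside 249 ± 10.8 CPM in trachea. Thymus had 59.7 ± 0.220 CPM and vagina 5.66 ± 0.658 CPM. Krt4 (0.54 ± 0.29 (SE), adjusted p = 0.125), Krt18 (0.13 ± 0.19 (SE), adjusted p = 0.614) and Krt19 (0.10 ± 0.18 (SE), adjusted p = 0.671) were not called against the mean of these tissues. The 95% intervals of their log2 differences were -0.06 to 1.15, -0.28 to 0.53 and -0.29 to 0.49. These do not show like levels, since bladder lay above trachea and vagina below it in each gene. Krt4 was at 233 CPM in trachea, 287 CPM in bladder, 15.3 CPM in vagina and 939 CPM in thymus. In the same order Krt18 was at 6.88, 23.2, 1.56 and 6.57 CPM, and Krt19 at 25.3, 441, 0.840 and 35.1 CPM. Foxa1 was not called (0.81 ± 0.25 (SE), adjusted p = 0.0123), with the highest level in bladder, 51.8 ± 1.04 CPM. By list, 13 of 33 xenobiotic enzymes were higher and 3 lower in trachea, beside 12.3% higher among all named genes, and 17 of 40 cytokine and innate defence genes were lower and 0 higher, beside 19.0% lower. Of 23 airway secretory genes, 5 were higher and 8 lower in trachea, with a median log2 difference of -0.55. On average Cftr was at 106 CPM in thymus and 6.67 CPM in trachea, and Tspan1 at 27.3 and 5.70 CPM. Tspan8 was at 1127 CPM in bladder and 536 CPM in trachea. Vagina was under trachea in these genes, at 0.335, 0.920 and 53.9 CPM.

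**Figure D5:**
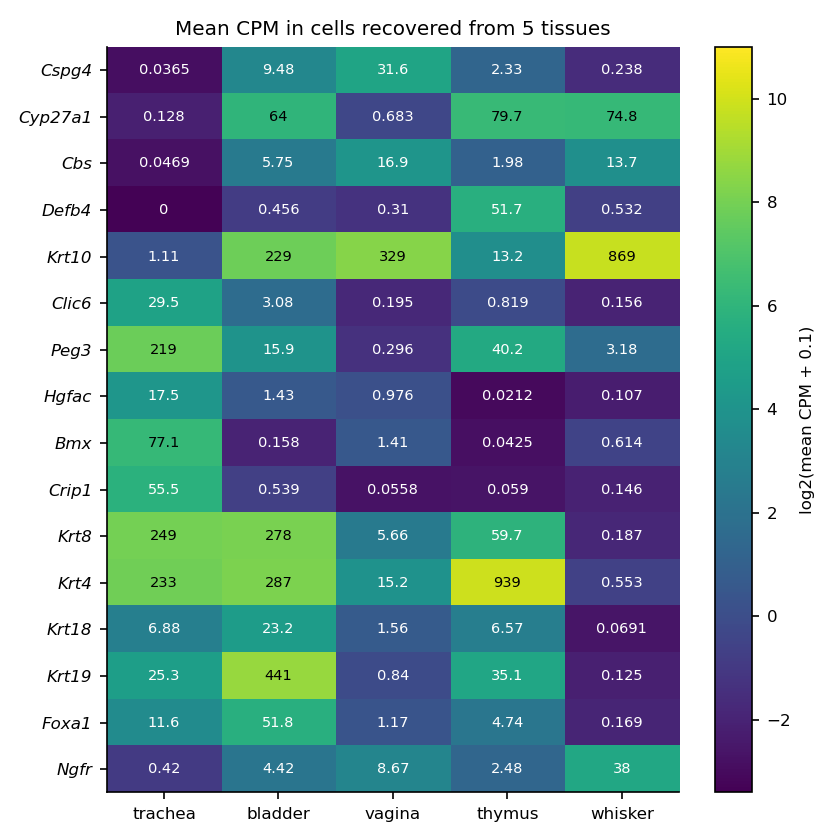
Mean CPM of 2 samples in recovered trachea, bladder, vagina, thymus and whisker cells (columns) for the 10 genes named for trachea against the other non-whisker tissues and 6 keratin, factor and receptor genes (rows), coloured by log2(mean CPM + 0.1). Crip1, Bmx, Hgfac and Clic6 are high in the trachea column alone, whereas Krt8, Krt4, Krt19 and Foxa1 are also high in bladder.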

How the data were processed

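RNA-seq counts from 20 samples (10 groups of 2) were used. The authors trimmed reads with cutadapt 1.8, aligned them with STAR 2.5.2b and counted them per gene with HTSeq 0.6.1 on the Rnor_6.0 annotation, and the deposited values are raw counts per Ensembl gene. Per the study's methods cells were cultured in parallel, and the 2 best RNA samples of each were sequenced. Samples were grouped by their labels. The rows of reads without a gene stayed out of library sizes. The columns of the study's own comparisons were not used.

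A gene was kept where any sample reached 1 CPM (13302 of 32494). Counts were scaled with TMM (edgeR 4.0.16) and fitted by voom (limma 3.58.1, R 4.3.3) as 1 model of the 10 group means over all 20 samples, with 10 residual degrees of freedom. Contrasts were recovered trachea minus recovered whisker, that difference minus the same before transplantation, and recovered trachea minus the mean of the other recovered tissues without whisker. P values are two-sided and Benjamini-Hochberg adjusted over all genes tested, and a called gene has an adjusted p under 0.05 and a log2 fold change of at least 1 in size. With 2 samples against 2, no exact permutation test can go below 0.33. The fit was tested on simulated data.

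Of 2311 identifiers paired with a name in the study's lists, 1917 of the genes tested had a usable symbol. Named genes were called genes: the 12 furthest in each direction with a mean of at least 10 CPM in the higher group, the 5 furthest for the other contrasts, and up to 3 in each direction of each list with a mean of at least 5 CPM, besides keratins and factors that say what a list holds. Groups that do not overlap were required only of the 12 furthest in each direction. Dsc1, Ptges, Cdkn2a, Sftpc, Cyp2f4, Pigr and the markers given at 0 were added after their values were seen. A few genes that the rule names are not reported here. The members and gene lists were chosen with earlier results of these data known. Where a group held 0 counts, a fold is given against 3 counts per library, and where it held 1 to 3 in all, a ratio with its exact interval. Alternatives were edgeR's quasi-likelihood test, DESeq2 1.42.0, size factors, other filters, a replicate block, fewer samples and leaving out each sample.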

Additional observations from a re-analysis of the deposited data

Results flagged for a closer look

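The difference between trachea and whisker changed between the rounds at 1760 genes, each by a test of the change itself (limma voom, Benjamini-Hochberg adjusted over all genes tested). Among the named genes furthest downward the change on the log2 scale was -7.62 for Bcat1, -6.10 for Dmrt2, -5.98 for Calcb, -5.92 for Aqp5 and -5.86 for Cyp27a1. Among those furthest upward it was 6.37 for Il36rn, 6.34 for Fxyd4, 4.31 for Dsg1, 4.18 for Aqp9 and 3.94 for Col20a1. Groups of 2 samples were too small to single out a sample.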

How the results depend on the processing

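Counts of called genes stayed within 1.5 times the reported ones in every alternative except a higher fold limit. At a log2 fold change of at least 2 in size, 1174 genes separated recovered trachea from whisker, 750 changed between rounds and 725 separated trachea from the other tissues. For the first comparison, edgeR's quasi-likelihood test called 2534 genes (2491 of them also called by limma voom), DESeq2 2478, a fit without a filter 3095, a fit of the 4 samples alone 2235, and fits leaving out 1 sample 2335 to 2464. For the change between rounds, leaving out 1 sample gave 1546 to 1705 genes, and for trachea against the other tissues 1519 to 1761. Deviations of samples with the same number correlated at -0.12 to 0.24 over 45 pairs of groups, 10 of them over 0.1, and at 0.0023 to 0.16 over the 10 pairs of recovered groups, 7 of them over 0.1 (0.14 for trachea and whisker). Not every pair passed 0.1, so the samples were taken to share only a number, although all 10 pairs of recovered groups were positive. With a replicate block 2552, 1795 and 1780 genes were called. The 2 bladder and the 2 thymic samples before transplantation differed most within their groups, and in a fit without them, added after seeing the data, 2555, 1904 and 1761 genes were called. Of 127 genes followed in the first comparison, 8 had another call in some alternative (Aqp5, Calcb, Ciita, Cspg4, Dtx4, Etv5, Nlrc5 and Ptges), as did 14 of 59 in the second and 10 of 69 in the third, and no direction of a called gene was reversed. Depth limits genes under about 0.1 CPM, for which 3 counts or fewer were read.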
